A study of Mus musculus with 3 samples.

Results

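Genes that mark basophils and mast cells were followed through spleens that carried islet grafts: the basophil proteases Mcpt8 and Prss34, the mast cell proteases Mcpt4, Cma1 and Tpsb2, the carboxypeptidase Cpa3, the IgE receptor chains Fcer1a and Ms4a2, the transcription factor Gata2 and the cytokine Il4. They were taken by gene name, and all gene probes that carry these names were used, which gave 11 probes for the 10 genes among 55679 probes for 34796 gene names on the array. The genes were picked with their signals on these arrays already known, so levels and ratios are given as a description and carry no test.

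The spleens came from male C57BL/6J mice made diabetic with streptozotocin (STZ), a toxin of insulin-producing cells, that had received 25 syngeneic islets in the spleen together with 100 islets under the kidney capsule. The first spleen was taken just after transplantation (day 0) and the next on day 2. The last was taken on day 139, after the kidney with its graft had been removed on day 100. The labels list the capsular graft in the description of the day 139 sample, and the treatment protocol gives it for all 3. Each time point is 1 array, how many mice went into it is not stated in the sources used here, and a spleen without islets was not analysed here. The day 0 array is the baseline, although it already held islets. With 1 array per time point no p-value or error of a condition can be given, and a difference between mice cannot be told apart from a difference between days.

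Basophils and mast cells are granulocytes that bind IgE through the high-affinity receptor FceRI, whose alpha chain is encoded by Fcer1a and whose beta chain is encoded by Ms4a2. Antigen that crosslinks the bound IgE makes them release histamine, lipid mediators, granule proteases and cytokines such as interleukin 4. Basophils mature in the bone marrow and circulate through blood and spleen, while mast cells settle in tissues, mature there under stem cell factor, the ligand of Kit, and store chymases, tryptases and carboxypeptidase A3 bound to proteoglycans. In mice, Mcpt8 and Prss34 are used as basophil proteases, and Cma1, Mcpt4 and Tpsb2 as proteases of connective tissue mast cells. Cpa3 is made by both cell types, and Gata2 is also active in blood stem and progenitor cells.

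The probes of Mcpt8 and Cma1 carry the contrast described below, and their sequences are shown because both genes encode related serine proteases whose genes lie on chromosome 14. Both probes lie across an exon junction. The Mcpt8 probe spans 375 bases of the minus strand at chr14:56702300-56702674, and the Cma1 probe spans 1060 bases of the minus strand at chr14:56561491-56562550, in mm9, the build of the array files. Capitals mark the longest run that both probes share, of 7 bases.
Mcpt8 probe: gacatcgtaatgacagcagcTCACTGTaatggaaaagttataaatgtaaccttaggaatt
Cma1 probe: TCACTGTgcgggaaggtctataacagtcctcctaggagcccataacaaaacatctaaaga
Over the 55 pairs of member probes, the best ungapped alignment held 29 matching bases of 60 and the longest shared run was 9 bases. Of the 11 probes, the Mcpt4 probe was the 1 that shared a run of at least 20 bases with a probe of another gene on the array, that of Mcpt-ps1, a related pseudogene.

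Promoters are shown for 2 genes with their highest signal on day 139 (Mcpt8, Prss34) and 2 with their highest signal on day 2 (Cpa3, Cma1). They are RefSeq sequences of GRCm38.p6, from 250 bases before to 50 after the start of the gene, written in the direction of transcription. The Mcpt8 promoter is chr14:56085148-56085447 on the minus strand, that of Prss34 is chr17:25298144-25298443 on the plus strand, that of Cpa3 is chr3:20242132-20242431 on the minus strand and that of Cma1 is chr14:55944626-55944925 on the minus strand. Capitals mark GATAA or its reverse complement TTATC, a core of the sites that GATA factors bind.
Mcpt8 promoter: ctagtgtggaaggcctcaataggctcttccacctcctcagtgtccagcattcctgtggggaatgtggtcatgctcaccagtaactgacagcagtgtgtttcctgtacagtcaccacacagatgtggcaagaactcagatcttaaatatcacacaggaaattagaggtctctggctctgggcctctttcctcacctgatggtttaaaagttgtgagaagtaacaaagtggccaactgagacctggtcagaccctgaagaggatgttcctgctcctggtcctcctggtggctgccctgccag
Prss34 promoter: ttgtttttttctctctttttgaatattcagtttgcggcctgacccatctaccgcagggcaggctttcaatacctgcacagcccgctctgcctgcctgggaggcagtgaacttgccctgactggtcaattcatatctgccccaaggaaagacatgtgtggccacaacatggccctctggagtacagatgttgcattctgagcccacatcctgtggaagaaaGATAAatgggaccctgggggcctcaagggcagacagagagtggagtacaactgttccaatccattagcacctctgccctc
Cpa3 promoter: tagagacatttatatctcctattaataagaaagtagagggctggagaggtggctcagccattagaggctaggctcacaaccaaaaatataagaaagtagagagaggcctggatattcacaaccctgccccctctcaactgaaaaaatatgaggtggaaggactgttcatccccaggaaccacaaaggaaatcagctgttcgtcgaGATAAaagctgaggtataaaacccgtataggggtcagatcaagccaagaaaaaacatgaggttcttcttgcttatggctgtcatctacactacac
Cma1 promoter: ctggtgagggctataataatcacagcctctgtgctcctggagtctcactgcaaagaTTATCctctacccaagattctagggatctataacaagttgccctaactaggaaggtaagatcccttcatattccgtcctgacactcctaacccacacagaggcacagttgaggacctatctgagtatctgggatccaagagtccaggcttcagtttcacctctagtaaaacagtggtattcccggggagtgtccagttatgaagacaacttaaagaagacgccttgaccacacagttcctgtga
A match on either strand was present in the promoter of Prss34, 30 bases before the start, of Cpa3, 45 bases before it, and of Cma1, 194 bases before it, and the Mcpt8 window held none. The table held 11 promoters of 9 member genes, of which 7 had at least 1 match, and 8347 of all 32851 promoters of that length (25.4%) had one. A match is a description of the letters and does not show binding.

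The tissue label held. The B cell genes Cd79a and Cd22, the red pulp macrophage factor Spic, the spleen factor Tlx1 and the hemoglobin gene Hba-a1 were well above background on all 3 arrays. The scanner software called between 28088 and 30291 of the 55679 probes well above background on an array (50.4% to 54.4%), and no gene spot was saturated. The lowest normalized signal called well above background was 12.9 on day 0, 14.0 on day 2 and 18.2 on day 139. The day 139 array had spike-in controls at 65.6% of their day 0 brightness, which matters for any value set between day 139 and the other days. In the values below, signals were quantile normalized, the same scale as the deposited table, whose 3 columns each had a median of 22.01.

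The 10 genes did not move together. Mcpt8, Prss34 and Fcer1a had their highest signal on day 139, whereas Cpa3, Cma1 and Mcpt4 had it on day 2 and their lowest on day 139. Gata2 and Tpsb2 were highest on day 0, Il4 stayed within a narrow range, and Ms4a2 was not detected. In a whole tissue, fewer cells of a type and less RNA per cell cannot be told apart. A gene counts as detected when 1 or more arrays read a probe of it well above background by the scanner software's own call, which held for 9 of the 10 genes, and the brightest detected probe stands for the gene.

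**Figure D1:**
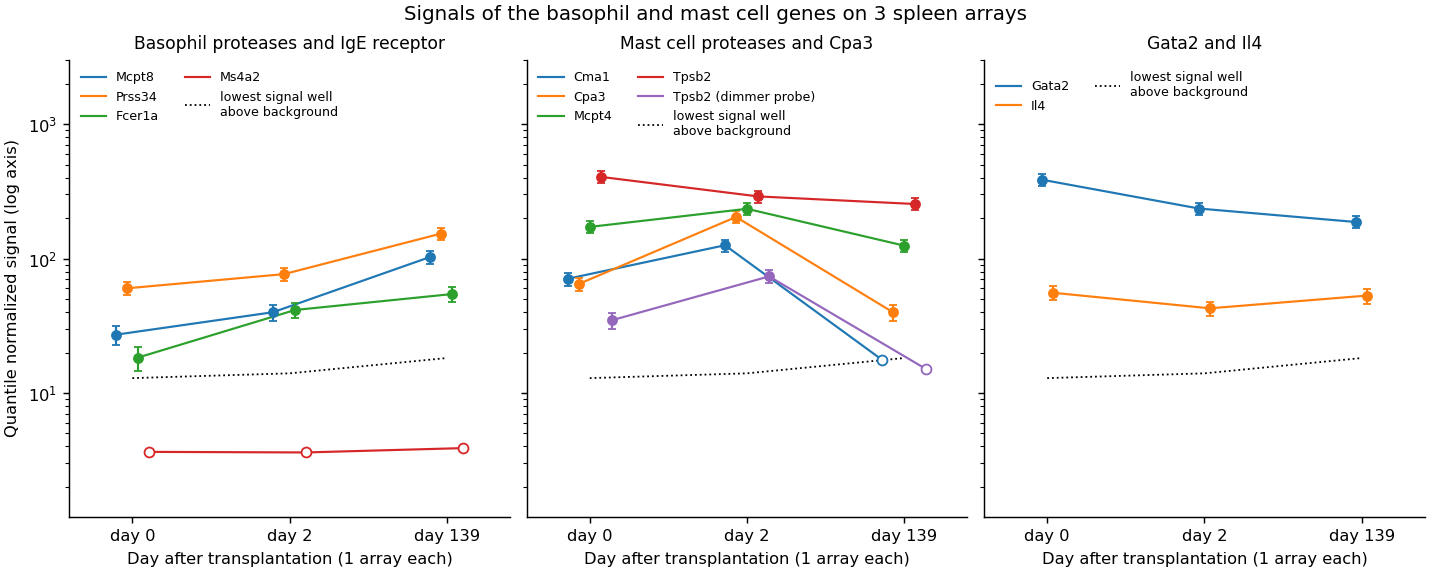
Quantile normalized signal (log axis) of the 11 member probes on the day 0, day 2 and day 139 arrays, 1 point per array. Bars are the scanner software's error of the spot signal (not shown for open points, which were not well above background) and the dotted line is the lowest signal called well above background. Mcpt8, Prss34 and Fcer1a are highest on day 139, and Cpa3, Cma1, Mcpt4 and the dimmer Tpsb2 probe are highest on day 2.

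Mcpt8, mouse mast cell protease 8, which despite its name is made by basophils, had a normalized signal of 27.1 on day 0, 39.9 on day 2 and 103 on day 139. It was above background on all 3 arrays, and day 139 stood apart from both earlier days. Day 139 over day 0 was 1.92 on the log2 scale, with a scanner error of 0.29, and day 139 over day 2 was 1.37 with an error of 0.25. The first of these was 2.57 times the SD among 1000 probes of like signal (the SD of their log2 ratios in that comparison), and the second 2.13 times. Day 2 over day 0 was 0.56, below that SD at 0.85 times it, so the order of these earlier days does not exceed the spread of like probes. Its ratio of 1.47 lay just under the limit of 1.5 used for calls below. After normexp, a background correction with an offset of 50, the log2 ratio of day 139 was 0.90 over day 0 and 0.68 over day 2.

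Prss34, a second basophil protease, had signals of 60.1, 76.6 and 154 on days 0, 2 and 139, in the same order as Mcpt8. Its probe lies at chr17:25436942-25437001 on the plus strand. Day 139 was 2.56 times day 0 and 2.01 times day 2, and these log2 ratios were 1.92 and 1.52 times the SD of probes of like signal. Day 2 over day 0 was 0.35 on the log2 scale with a scanner error of 0.23, which was 0.52 times that SD. After normexp, the log2 ratio of day 139 fell from 1.355 to 0.818 over day 0 and from 1.004 to 0.653 over day 2.

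The IgE receptor chains gave a different picture for each gene. Fcer1a, the alpha chain that holds IgE, had signals of 18.3 on day 0, 41.5 on day 2 and 54.5 on day 139 (probe at chr1:175151438-175151497, minus strand). In quantile normalized values, most of its difference lay between day 0 and day 2, at 1.18 on the log2 scale with a scanner error of 0.34. This was 1.53 times the SD of like probes, and day 139 over day 2 was 0.39, within 0.50 times it. When arrays were scaled to the spike-in controls, these ratios were 1.07 and 0.82, a more even split. After normexp they were 0.38 and 0.17. Ms4a2, the beta chain, had signals of 3.65, 3.61 and 3.89 on days 0, 2 and 139, none well above background, so no ratio is given (probe at chr19:11691701-11691760, minus strand). A chain that both cell types use was thus not detectable on these arrays.

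Among the mast cell proteases, Cma1, a chymase, had signals of 70.8 on day 0 and 125.7 on day 2, and 17.6 on day 139, where it was not well above background. In quantile normalized values, day 139 was therefore at least 3.89-fold lower than day 0 and at least 6.90-fold lower than day 2. These bounds set the brighter array against the higher of the dim probe's own signal and the lowest signal called well above background, 18.2 on that array. Scaling to the spike-in controls and normexp gave smaller differences. As measured, day 139 over day 0 was -2.01 on the log2 scale, and day 139 over day 2 was -2.84. These were -1.66 and -2.43 when arrays were scaled to the spike-in controls. After normexp, a background correction with an offset of 50, they were -0.70 and -1.19. Day 2 over day 0 was 0.83 on the log2 scale, 1.35 times the SD of like probes.

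Cpa3, the granule carboxypeptidase of both cell types, had signals of 64.7, 204.0 and 39.8 on days 0, 2 and 139 (probe at chr3:20115674-20115733, minus strand). Day 2 was above both other days. It was 3.15 times day 0, or 1.66 on the log2 scale with a scanner error of 0.22, and day 139 over day 2 was -2.36 with an error of 0.25. Day 139 over day 0 was -0.70, which was 0.88 times the SD of like probes below 0, so these days are not ordered beyond that spread.

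Mcpt4, a second chymase, followed the same order with smaller differences, at 172.1, 234.7 and 124.8 on days 0, 2 and 139 (probe at chr14:56678589-56678648, minus strand). Day 139 over day 2 was -0.91 on the log2 scale and was past the SD of like probes, but with spike-in scaling it was -0.48, inside that SD and no longer called lower. Day 2 over day 0 was 0.45 and day 139 over day 0 was -0.46, both inside it. The Mcpt4 value is uncertain because of the run shared with the Mcpt-ps1 probe, whose own signals were 17.0 on day 0 and 31.0 on day 2 and not well above background on day 139.

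Tpsb2, a tryptase, was read by 2 probes that disagreed. The brighter one, at chr17:25504819-25504878 on the plus strand, had signals of 405.6, 290.2 and 254.7 on days 0, 2 and 139. Its day 2 over day 0 was -0.48 on the log2 scale, inside the SD of like probes. Its day 139 over day 0 was -0.67, past that SD, but -0.28 and inside it with spike-in scaling. The dimmer one, at chr17:25504493-25504552, had 34.8, 73.7 and 15.0, the last not well above background. By the dimmer probe day 2 was 2.12 times day 0 and day 139 was at least 4.05-fold lower than day 2, the order of Cpa3 and Cma1. The direction of Tpsb2 between day 0 and day 2 therefore depends on the probe.

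Gata2, a factor that both lineages need, had signals of 386.7, 235.8 and 187.1 on days 0, 2 and 139 (probe at chr6:88156362-88156421, plus strand). Day 2 was 0.610 and day 139 was 0.484 of day 0, at -0.71 and -1.05 on the log2 scale. These lay 1.35 and 1.78 times the SD of like probes below 0, and were -0.76 and -0.65 with spike-in scaling. Day 139 over day 2 was -0.33, inside the SD of like probes, and turned to 0.11 when arrays were scaled to the spike-in controls.

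Il4 is the 1 member printed repeatedly on the array, which gives a direct look at spot error (probe at chr11:53426076-53426135, minus strand). Before normalization its spots lay between 45.7 and 79.3 on day 0 (10 spots), 36.6 and 51.9 on day 2 (10 spots) and 41.8 and 54.2 on day 139 (9 spots). The spots of the 3 arrays overlapped. The normalized signals were 55.7, 42.7 and 53.1, and all 3 log2 ratios, -0.39 for day 2 over day 0, -0.07 for day 139 over day 0 and 0.32 for day 139 over day 2, were inside the SD of like probes. The day 139 over day 0 ratio turned to 0.28 with spike-in scaling. Spots on an array are repeats of the measurement and not of the mouse.

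**Figure D2:**
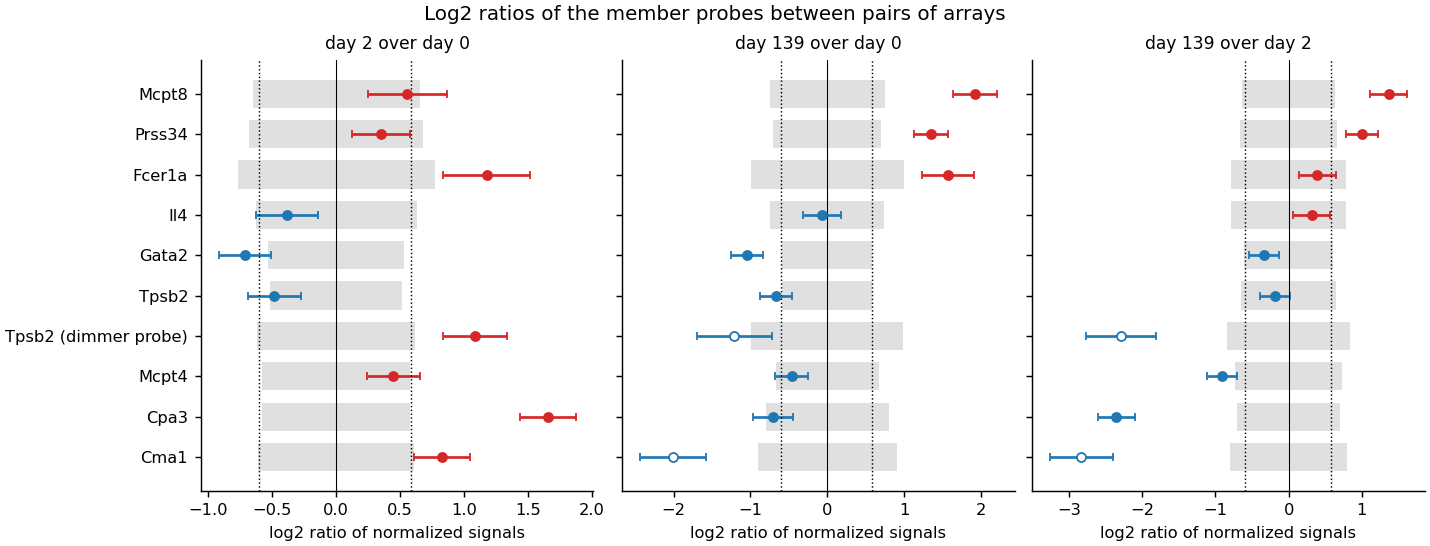
Log2 ratio of normalized signals (horizontal axis) for each detected member probe in the 3 comparisons. Bars are the scanner software's error, grey blocks are 1 SD either side of 0 among 1000 probes of like signal, dotted lines are ratios of 0.66 and 1.5, and open points are probes that 1 of the arrays compared did not read well above background. On day 139, Mcpt8 and Prss34 lie to the right of the grey in both comparisons and Cma1 to its left.

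For counts, a gene was called higher at a ratio of at least 1.5 and lower at a ratio of at most 0.66. These are the ratio limits of the study, which also required a Z-score of at least 2 or at most -2, computed here by expressing a log2 ratio in SDs of like probes. On day 2 against day 0, 3 of the 9 detected members were higher (Fcer1a, Cpa3 and Cma1) and 1 was lower (Gata2), where 9.94% of all 22851 detected genes were higher and 9.87% lower. The median log2 ratio was 0.45 over the members and 0.02 over all genes. On day 139 against day 0, 3 members were higher (Mcpt8, Prss34 and Fcer1a) and 4 were lower (Gata2, Cpa3, Cma1 and Tpsb2), where 13.6% of all genes were higher and 13.7% lower. The members' median was -0.46 and that of all genes -0.003. On day 139 against day 2, 2 were higher (Mcpt8 and Prss34) and 3 lower (Cpa3, Cma1 and Mcpt4), where 12.8% of all genes were higher and 13.5% lower. The medians were -0.19 and -0.03. The comparisons share arrays and are not independent of each other, and since the genes were picked with these values known, nothing is read from the counts. With the Z-score required as well, 1 member was higher (Cpa3) and 0 were lower on day 2 against day 0, 1 was higher (Mcpt8) and 1 lower (Cma1) on day 139 against day 0, and 1 was higher (Mcpt8) and 2 were lower (Cpa3 and Cma1) on day 139 against day 2.

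The basophil proteases and the mast cell proteases were set against each other within each comparison, which removes any factor common to an array. For day 139 over day 0, the log2 ratio of Mcpt8 exceeded that of Cma1 by at least 3.88, a bound because the Cma1 probe was not well above background on day 139. That of Prss34 exceeded that of Mcpt4 by 1.82, with a scanner error of 0.31. The SDs of like probes in that comparison were 0.71 for Prss34 and 0.67 for Mcpt4, each larger than this error. Against the brighter Tpsb2 probe, Mcpt8 was ahead by 2.59 and Prss34 by 2.03, with scanner errors of 0.35 and 0.30. For day 2 over day 0, Mcpt8 minus Cma1 was -0.27 and Prss34 minus Mcpt4 was -0.10, both within their scanner errors of 0.38 and 0.31. The differences against the brighter Tpsb2 probe for day 2 over day 0 were 1.04 and 0.83, of the same sign as on day 139. The dimmer Tpsb2 probe had 1.085 for day 2 over day 0, above Mcpt8 at 0.56 and Prss34 at 0.35. The sign against Tpsb2 on day 2 therefore depends on the probe. Cpa3, which both cell types make, was also set beside Mcpt8, which exceeded it by 2.63 for day 139 over day 0. After normexp background correction with an offset of 50, which draws the ratios of dim probes toward 0, the measured difference between Mcpt8 and Cma1 was 1.60 in place of 3.93. That between Prss34 and Mcpt4 was 1.13 in place of 1.82, and that between Mcpt8 and Cpa3 was 1.18 in place of 2.63.

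**Figure D3:**
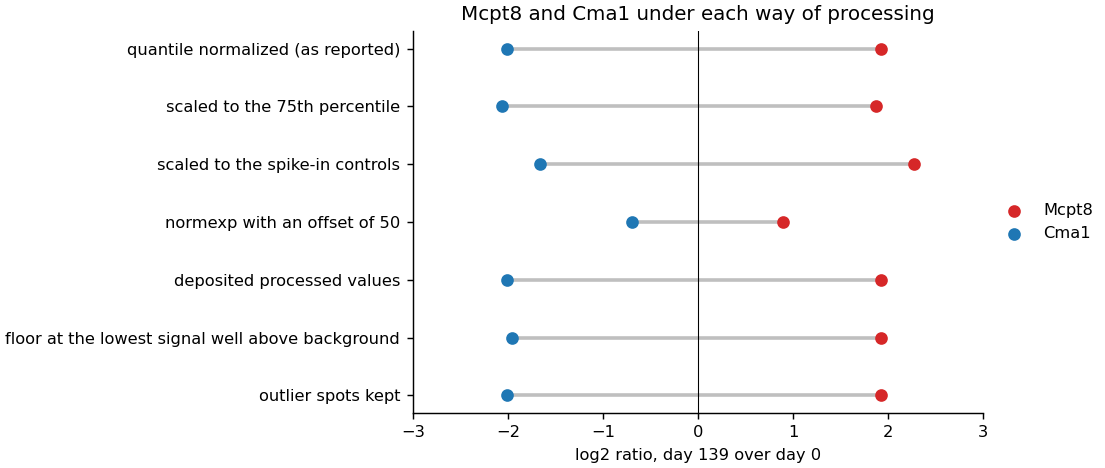
Log2 ratio of day 139 over day 0 for Mcpt8 and Cma1 under each way of processing the 3 arrays. Mcpt8 is above 0 and Cma1 below 0 in every row, 3.93 apart as measured with quantile normalization and 1.60 apart after normexp. The Cma1 probe was not well above background on day 139, so with quantile normalization its distance from Mcpt8 is a bound of at least 3.88. Scaling a whole array shifts both points alike.

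The wider basophil list did not share the direction of Mcpt8. Of its 10 genes, 7 are members, among them Ms4a2, and 8 were detected. On day 139 against day 0, 3 were higher and 3 lower, with a median of 0.01 on the log2 scale. In that comparison 13.6% of all detected genes were higher and 13.7% lower, which stands beside the count of each list below. Its genes Cd200r3, a receptor of basophils, and Ms4a2 were not well above background on any array. Hdc, histidine decarboxylase, which makes histamine and is also expressed by other myeloid cells, had signals of 3755, 684 and 389, so that its log2 ratio of day 139 over day 0 was -3.27, opposite in sign to Mcpt8. Il3ra, the interleukin 3 receptor alpha chain, had 1448, 1837 and 1544. The summed signal of the list was 5816, 3162 and 2524 on days 0, 2 and 139 and was mostly that of Hdc and Il3ra.

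Of the 12 mast cell markers, 5 are members of the set, and 7 were detected. Tpsab1, Mrgprb1, Mrgprb2, Mcpt9 and Ms4a2 were not well above background on any array, so several genes that define mature mast cells were not detectable in these spleens. On day 139 against day 0, no detected marker was higher and 4 were lower, with a median of -0.67, but 3 of the 7 genes were not well above background on 1 or both of these arrays. Over the 4 that were (Mcpt4, Tpsb2, Cpa3 and Kit), 2 were lower on day 139 against day 0, with a median of -0.57, and 2 against day 2, with a median of -0.55. Of these 4, only Kit is not a member of the set. The 2 lower against day 0, Tpsb2 and Cpa3, were at -0.28 and -0.36 with spike-in scaling and no longer called. Against day 2, Cpa3 was still called with that scaling, at -1.96, and Mcpt4 was not, at -0.48. Mcpt1 and Mcpt2, proteases of mucosal mast cells, were each above background on 1 array only, Mcpt1 on day 2 at 15.8 and Mcpt2 on day 0 at 26.0. Kit, the stem cell factor receptor that progenitors also carry, was nearly level at 758, 704 and 665.

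Genes around the IgE receptor were called about as often as all genes. Of 13 signalling genes, all were detected, and on day 139 against day 0 there were 3 higher, 1 lower and 9 between, where 72.7% of all genes lay between the limits, with a median of 0.21. Fcer1g, the receptor's gamma chain, shared with other Fc receptors, had 24860, 20610 and 20700. Fcer2a, the low-affinity IgE receptor of B cells, had 340, 631 and 1080, and Lat2, an adaptor of B cells and mast cells, had 697, 816 and 1526. Lyn, the kinase that starts the cascade, had 458, 268 and 413. Cd79a and Cd22 were also higher on day 139, at ratios of 2.58 and 2.08 to day 0, and the part of B cells in the values of Fcer2a and Lat2 was not tested.

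Among growth and cytokine receptors and their ligands, 10 of the 15 listed genes were detected, and on day 139 against day 0 none was higher and 5 were lower, with a median of -0.45. Kitl, stem cell factor itself, had 888, 577 and 272, and Il1rl1, the interleukin 33 receptor, had 1099, 1456 and 480. Both were lowest on day 139, as were Cpa3, Cma1 and Mcpt4. Tslp, an epithelial cytokine that acts on basophils, was highest on day 2, with 17.1, 45.8 and 25.0. Il3, the main growth factor of basophils, was not well above background on any array.

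Of the mediator genes, 9 of 9 were detected, with none higher and 4 lower on day 139 against day 0 and a median of -0.28. Ltc4s, which makes leukotriene C4, had 1123, 3436 and 1353, and Alox5, the first enzyme of that route, had 355, 506 and 186. Both were highest on day 2. Of 8 transcription factors listed, 7 were detected and 2, Gata1 and Tal1, were lower on day 139 against day 0, with a median of -0.06. Gata1 had 9122, 11180 and 4832, and Cebpa, a myeloid factor, had 375, 293 and 300. Of the 9 other granule protease genes, 6 were detected. On day 139 against day 0, 1 was higher and 2 were lower, with a median of 0.01. Gzmb, granzyme B of cytotoxic lymphocytes, had 587, 390 and 157, and Prss29, a tryptase-like serine protease, had 33.7, 21.0 and 61.8. Cma2, a chymase-like gene, had 193, 269 and 190.

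Other cell types moved in the same spleens. Erythroid and progenitor genes, which share Gata2 with the member lineages, had 3 of 8 lower and none higher on day 139 against day 0 (median -0.37), among them Klf1 at 0.480 of day 0. Their summed signal was 29970, 31800 and 20800, and their part in the Gata2 values was not tested. T helper genes, a source of Il4, had 4 of 7 higher and 1 lower (median 0.71), with Cd4 at 1455, 1949 and 2910 and Cd3g at 854, 965 and 1693, while Il4 itself was nearly level. Islet endocrine genes of the graft had 9 of 11 higher on day 2 against day 0 and 11 of 11 lower on day 139 against day 2, with summed signals of 63900, 109000 and 33410. Mesothelial genes had 6 of 7 higher on day 2 and on day 139 against day 0, with summed signals of 1719, 2582 and 4988. Acinar genes had 7 of 8 higher on day 139 against day 0, with summed signals of 1007, 792 and 1396. Cela1, which was not higher, made up much of that sum, at 870, 599 and 603. Some genes of these 3 lists were detected only through the array where they were high. Over genes well above background on both arrays compared, 8 of 10 islet genes were higher on day 2 against day 0. On day 139 against day 2, 9 of 9 islet genes were lower. Of mesothelial genes, 3 of 4 were higher on each later day against day 0, and of acinar genes 3 of 4 on day 139. The day 2 peak of Cpa3, Cma1 and Mcpt4 thus fell on the array with the highest islet sum, and the day 139 signals of Mcpt8 and Prss34 on that with the highest mesothelial and acinar sums. The part of tissue carried with the graft or the organ surface in these values was not tested.

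**Figure D4:**
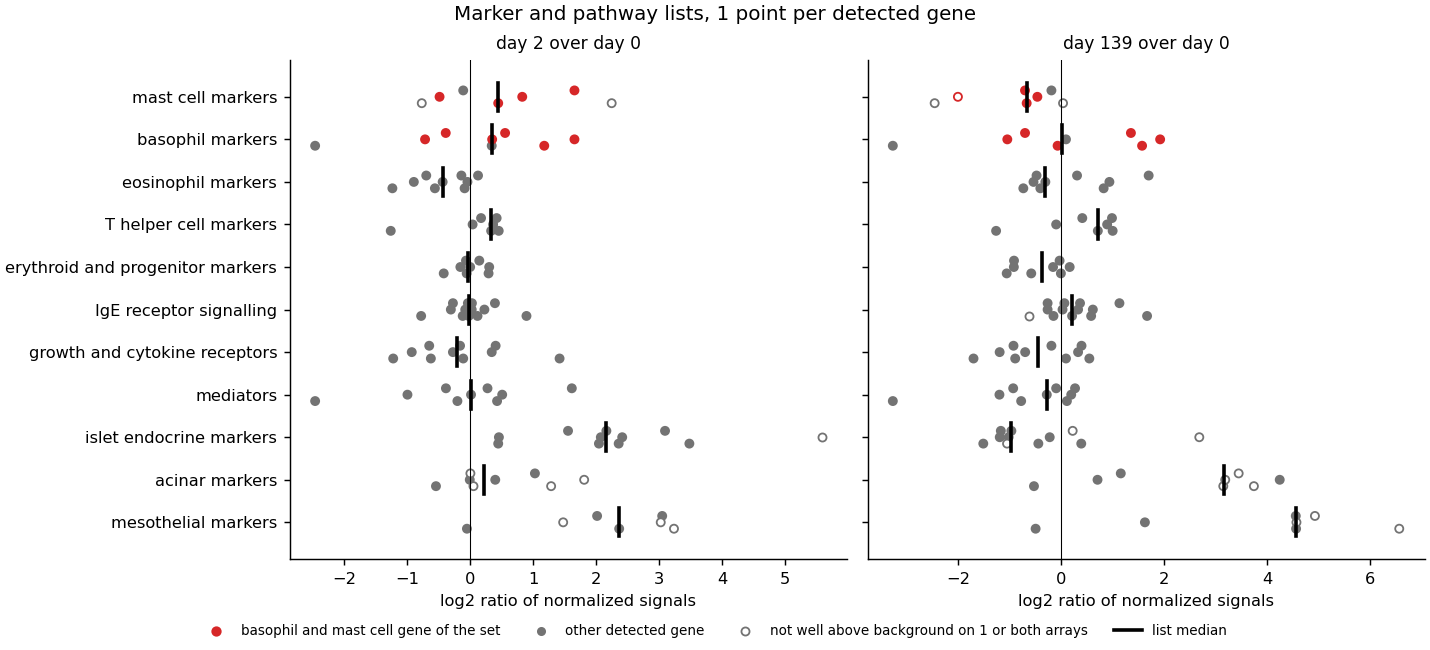
Log2 ratio of normalized signals (horizontal axis) for day 2 over day 0 and day 139 over day 0, with 1 point per detected gene of each list and a black bar at the list's median. Members of the basophil and mast cell set are red, and open points were not well above background on at least 1 of the arrays. The 7 mast cell markers have a median of -0.67 on day 139 (-0.57 over the 4 filled points), while the basophil markers lie on both sides of 0 around a median of 0.01.

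The genes with the profile most like that of Mcpt8 were sought among 19800 genes well above background on all 3 arrays, by the root mean square difference of the log2 ratios of day 2 and day 139 over day 0. Kcnd1, a potassium channel gene, was nearest, at 0.0047 and with signals of 532, 785 and 2021. Stra8, Pgam2, an unnamed Ensembl transcript and Derl3 followed, up to 0.085, and 7 genes lay within 0.1. For the bright Tpsb2 probe, Sco2 was nearest at 0.0052, followed by a noncoding region of chromosome 10, Odc1, Glipr2 and Plxna2, and 185 genes lay within 0.1. For Cpa3, a profile looked up after its values were seen, no gene lay within 0.1, and the nearest were Higd1b at 0.19 and Ednrb at 0.20. With 2 ratios from 3 arrays, many genes can match by coincidence, and the likeness carries no p-value.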

How the data were processed

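Total RNA of 3 spleen samples was labelled with Cy3 and hybridized to 1-colour Agilent mouse arrays of 1 slide. The authors scanned the arrays and deposited Feature Extraction files (version 10.7.1.1 per the file headers, 9.5.1.1 per the labels) whose processed signal is a background-subtracted intensity on a linear scale, and a table of quantile normalized intensity. The labels and the study's methods name different RNA kits.

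Here control spots and outlier spots were left out, the spots of a probe were averaged, the arrays were quantile normalized, and values were floored at 1 before log2. No member's log2 signal differed by more than 0.0246 from the deposited one. A probe was well above background on an array when at least 0.5 of its spots were. Normexp used limma 3.58.1 in R 4.3.3, and all else numpy 2.4.6 and pandas 2.3.3 under Python 3.11.15. The scripts were checked on simulated data. The number of arrays, 3, limits the precision.

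The members and all lists were chosen with earlier results of these data known, and the islet, acinar and mesothelial lists were added for cells that moved. Named were all members, the 3 genes of largest log2 ratio in each list but the islet, acinar and mesothelial ones (among genes well above background on both arrays), some named for their role after their values were seen, and the 5 genes most like Mcpt8 and Tpsb2. All 10 member names matched RefSeq (GRCm38.p6) by accession. Other probe sequences, which may lie in untranslated regions, are not shown. Alternatives were the scaling, background correction, floor, outlier spots, probe choice and call limits.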

Additional observations from a re-analysis of the deposited data

How the results depend on the processing

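The order of the 3 days was the same for Mcpt8, Prss34, Fcer1a, Cpa3, Cma1 and Mcpt4 under all 7 ways of processing. Of 168 log2 ratios of single members recomputed, 132 moved by less than the scanner error of the ratio and 36 moved by more, 15 of them with normexp, 15 with spike-in scaling, 3 with the mean of a gene's probes and 3 with the dimmer Tpsb2 probe, an alternative chosen after seeing the data. Spike-in scaling raised the median of all detected probes by 0.38 for day 139 over day 0 and 0.43 for day 139 over day 2. With it, 2 members in place of 4 were lower on day 139 against day 0 (Cpa3 and Tpsb2 left the count), and 4 in place of 2 were higher against day 2 (Fcer1a and Il4 joined) and 2 in place of 3 lower (Mcpt4 left). With normexp, 1 member, Cpa3, in place of 3 was higher on day 2 against day 0. With ratio limits of 2 and 0.5, 0 members were lower on day 2 and 2 on day 139 against day 0. Requiring in addition a ratio beyond 2 SDs of like probes left 1 higher and 0 lower on day 2 against day 0. It left 1 higher and 1 lower on day 139 against day 0, and 1 higher and 2 lower on day 139 against day 2. With the spread taken from the median absolute deviation, 2 were higher and 1 lower on day 2 against day 0. That spread left 3 higher and 2 lower on day 139 against day 0, and 2 higher and 3 lower on day 139 against day 2. The cause of these changes was not tested. No paired analysis was possible because each day has 1 array, and for the same reason no array could be left out. List counts and medians over genes well above background on both arrays were an alternative chosen after seeing the data. Dim probes limit the reading of Ms4a2 on all days and of Cma1 on day 139.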

Other observations

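Eosinophils share growth factors and tissue sites with basophils, and their genes did not share a direction. Of 9 eosinophil genes detected, 3 were higher on day 139 than on day 0 and 1 was lower, with a median log2 ratio of -0.31. Prg2, the major basic protein, had normalized signals of 706, 301 and 1353 on days 0, 2 and 139, and the related Prg3 had 104, 101 and 337. Both were highest on day 139. Il5ra, the interleukin 5 receptor, had 246, 223 and 435. Ccr3, the eotaxin receptor, also found on basophils, had 2734, 1475 and 1642.

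The type 2 cytokines Il5, Il13 and Il9 were not well above background on any array, so Il4 was the 1 cytokine of that group with a signal. Il4ra, the receptor chain for interleukins 4 and 13, had 783, 328 and 326, and Il13ra1 had 94.3, 37.0 and 62.2. Both were highest on day 0. Il2rg, the common gamma chain, had 1094, 1336 and 1811. Of the 8 type 2 cytokines and receptors listed, 3 were detected, and on day 139 against day 0 1 was higher and 2 were lower, with a median log2 ratio of -0.60. Each of these values is 1 array with no replicate.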
